A study of Mus musculus with 6 samples.

Results

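The 46 genes described here encode the cyclins, kinases and E2F factors that take a cell from the G1 phase into S phase, and the proteins that copy DNA once it is there. They were named by gene symbol, each symbol matched 1 Ensembl gene, and they were 46 of the 46983 genes in the deposited files. All 46 passed the filter on low counts that left 15199 genes for testing. RNA sequencing had been done on fibroblasts, cells of connective tissue, cultured from C57BL/6 mouse embryos of 14 days, after 16 passages. There were 3 libraries with the label SphK2 null and 3 with the label wild type, and both kinds of cells shared the strain, the passage and a medium with 10% serum. SphK2 is sphingosine kinase 2, an enzyme that makes the lipid signal sphingosine-1-phosphate. The labels give neither the nature of the null allele nor whether replicate libraries stem from separate embryos or cultures. The p-values therefore describe variation among libraries, part or all of which may be technical.

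Entry into S phase is driven by D-type cyclins bound to CDK4 or CDK6 and by E-type cyclins bound to CDK2. These kinases phosphorylate the retinoblastoma protein RB, which otherwise holds E2F transcription factors inactive. Freed E2F factors switch on genes of nucleotide synthesis and of the replication machinery. The origin recognition complex, CDC6 and CDT1 load the ring of MCM2 to MCM7 onto DNA. CDC45 and the GINS complex turn this ring into the active helicase, behind which the polymerases work.

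Many of these genes carry E2F sites near their start, and the sequences before 4 of them are shown because they combine such a word with different directions of change. Searched were the 4 words TTTCCCGC, TTTCGCGC, TTTGCCGC and TTTGGCGC on both strands, in the RefSeq windows (build GRCm38.p6) from 250 bases before to 50 bases after each start. Printed are the 250 bases before the start, 5′ to 3′ on the strand of the gene, with the words in capitals.
Gins3 (chr8:95633309-95633558, plus strand): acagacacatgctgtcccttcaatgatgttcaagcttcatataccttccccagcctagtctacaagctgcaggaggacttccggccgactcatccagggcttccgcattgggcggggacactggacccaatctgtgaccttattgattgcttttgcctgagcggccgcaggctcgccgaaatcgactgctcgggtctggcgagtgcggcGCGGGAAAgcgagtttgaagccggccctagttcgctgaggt
Mcm5 (chr8:75109259-75109508, plus strand): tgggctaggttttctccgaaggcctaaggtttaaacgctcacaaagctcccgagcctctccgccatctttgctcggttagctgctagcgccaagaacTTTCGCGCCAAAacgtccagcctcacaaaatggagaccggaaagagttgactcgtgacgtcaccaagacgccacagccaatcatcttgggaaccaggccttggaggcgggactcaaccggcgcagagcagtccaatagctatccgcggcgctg
Mcm7 (chr5:138171884-138172133, minus strand): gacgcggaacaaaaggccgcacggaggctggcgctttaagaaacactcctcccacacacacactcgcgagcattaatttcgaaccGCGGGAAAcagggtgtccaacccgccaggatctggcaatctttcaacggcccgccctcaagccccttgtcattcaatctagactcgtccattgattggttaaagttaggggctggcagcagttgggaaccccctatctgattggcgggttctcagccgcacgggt
Mcm6 (chr1:128359706-128359955, minus strand): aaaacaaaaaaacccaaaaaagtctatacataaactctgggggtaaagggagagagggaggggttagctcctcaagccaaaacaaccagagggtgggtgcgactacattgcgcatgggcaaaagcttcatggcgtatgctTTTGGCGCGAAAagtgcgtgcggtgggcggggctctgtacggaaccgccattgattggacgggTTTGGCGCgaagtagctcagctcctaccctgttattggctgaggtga
Mcm7 has a further word just after its start, outside the printed stretch. The words of Mcm5 overlap each other, and so do the first 2 of the 3 words of Mcm6. In the null-labelled libraries Gins3 and Mcm5 rose, Mcm6 fell and Mcm7 rose by a small amount, with values given further on. Of the 46 members, 37 had such a window by symbol and 17 of them (45.9%) held an E2F word in at least 1 window, against 4.7% of the 10240 tested genes with a window. CCAAT, the core of the motif bound by the factor NF-Y, was found on either strand in 67.6% of the members and in 43.1% of the tested genes. The E2F word was present in 10 of 20 members that were higher, 4 of 13 that were lower and 3 of 4 that were not called. The median log2 fold change was 0.18 in the 17 members with a word and 0.12 in the 20 without. A match is a description of letters and does not show binding.

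The libraries behind these values were deep and close to each other within a label. The null-labelled libraries held 16804841 to 19148434 counts in genes and the wild-type-labelled ones 15598566 to 23681718. Sphk2 itself, the targeted gene, had 964, 883 and 921 counts in the null-labelled libraries, against 654, 418 and 503 in the wild-type-labelled ones. Its log2 fold change was 0.87 ± 0.051 (SE, edgeR adjusted p = 4.48e-64), where the other tested genes within 5 Mb on either side had a median of 0.51. A count over the whole gene does not show whether its allele is null. Directions below therefore compare labels and not checked genotypes. The 11 fibroblast markers were all lower in the null-labelled libraries, where their summed level was 3361 to 3396 CPM (counts scaled by library size with TMM factors), against 14753 to 15229 CPM in the wild-type-labelled ones. Thy1 had no count in the null-labelled libraries and Lum was at or below 3 counts over the 3 of them. Nearly all of the summed level there was Vim, which is not particular to fibroblasts. Sums of the other marker lists ran from 383.1 to 410 CPM in the null-labelled and 106.6 to 109.9 CPM in the wild-type-labelled libraries for 6 epithelial genes, nearly all of it Krt8, while Krt18 was lower and Epcam, Cdh1 and Krt19 were near 0 in both. They ran from 435.9 to 460.5 against 314.6 to 321.3 CPM for 4 neural, 19.8 to 20.29 against 0.131 to 0.215 CPM for 4 trophoblast, 0.320 to 0.768 against 111.9 to 112.9 CPM for 4 pluripotency, 6.72 to 7.62 against 18.6 to 20.3 CPM for 4 leukocyte and 2.00 to 2.93 against 1.59 to 2.10 CPM for 4 endothelial genes. The neural sum was mostly Nes, the trophoblast sum Hand1 and the pluripotency sum Sox2 in the wild-type-labelled libraries, while Cdx2, Elf5, Tfap2c and Zfp42 were at or below 3 counts in both labels. Map2 of the neural list went the other way, with a mean of 0.018 CPM in null-labelled and 4.08 CPM in wild-type-labelled libraries, and Tubb3 was not called. Of the endothelial genes, Pecam1 was higher (mean 2.16 against 0.954 CPM) and Cdh5 lower (0.201 against 0.809 CPM). The part of these differences in the values of the replication genes was not tested. In RNA of a whole culture, fewer cells in a phase of the cycle and less RNA per cell cannot be told apart.

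The G1/S and replication genes went in both directions, mostly by small amounts. In the null-labelled libraries 24 members (52.2%) were higher and 16 (34.8%) lower at an adjusted p under 0.05 by edgeR's quasi-likelihood test, and 6 did not pass. Over all tested genes 38.1% were higher and 41.1% lower by the same rule, 79.2% in either direction. The 6 members that did not pass were Ccne2, Cdk2, E2f3, Pole, Fen1 and Lig1. The median log2 fold change of the members was 0.12, against -0.02 for all genes tested, and the median size regardless of direction was 0.31, against 0.47. With glmTreat of edgeR, which asks for a difference beyond 1.5-fold, 8 members were higher and 3 lower, where 15.3% of all genes were higher and 19.2% lower. The 8 higher were E2f2, Ccnd2, E2f8, Gins3, Cdt1, Mcm5, Ccne1 and Gins4, and the 3 lower were Cdc45, Mcm4 and Cdk4. In 40 members (87%) the values of the labels did not overlap, against 79.9% of all genes. The plot of levels by library shows how little the replicates of a label differed.

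**Figure D1:**
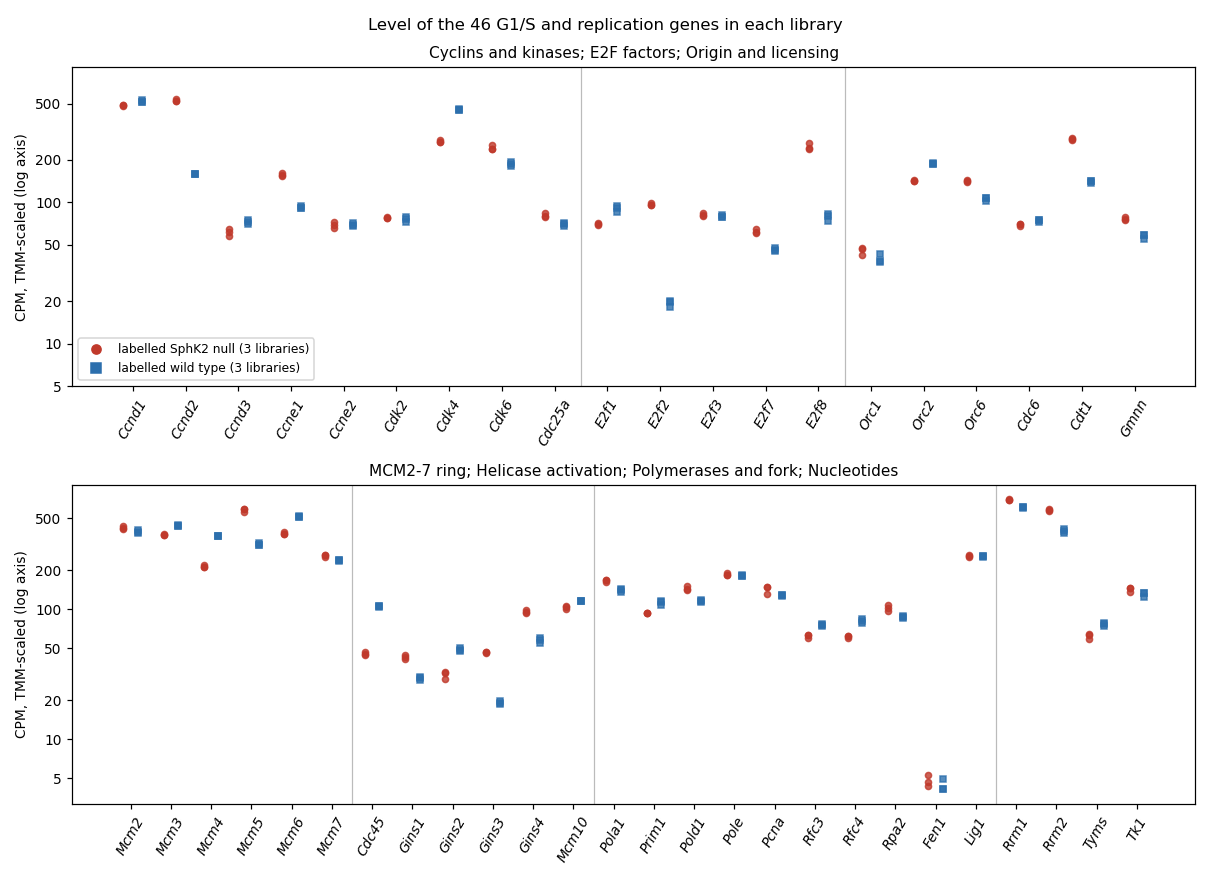
Level of each of the 46 genes in each library, in CPM scaled with TMM factors on a log axis, with genes grouped by role. Red circles are the 3 null-labelled and blue squares the 3 wild-type-labelled libraries. E2f2, E2f8, Ccnd2 and Gins3 are the members that stand farthest above their wild-type-labelled values and Cdc45 the one farthest below.

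Among the D-type cyclins, the growth-factor-responsive partners of CDK4 and CDK6, Ccnd2 changed most. Ccnd2 had 518.9, 534.8 and 519.2 CPM in the null-labelled libraries, against 158.1, 158.2 and 158.5 CPM in the wild-type-labelled ones. The groups lay far apart, by a log2 fold change of 1.73 ± 0.026 (SE) with an edgeR adjusted p below 1e-300. Ccnd1 averaged 484.8 ± 7.34 CPM in null-labelled and 520.2 ± 11.6 CPM in wild-type-labelled libraries (SD, n = 3 each), a small fall (log2 fold change -0.10 ± 0.023 SE, edgeR adjusted p = 1.86e-05). That call was lost with scaling by total counts alone (-0.04, edgeR adjusted p = 0.0729). Ccnd3 fell too, to 61.1 ± 3.58 CPM against 72.7 ± 2.47 CPM (SD, n = 3 each; log2 fold change -0.25 ± 0.041 SE).

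Counted per kilobase of exon, which allows genes to be compared, Ccnd1 remained the main D-type cyclin in all 6 libraries. Its share of the 3 genes was 67.0, 66.2 and 67.3% in the null-labelled libraries, against 84.3, 84.7 and 84.1% in the wild-type-labelled ones. Ccnd2 made up 29.1, 30.3 and 29.0% in null-labelled libraries, against 10.6, 10.2 and 10.5%. The sum of the 3 levels was 189.1 ± 1.30 RPKM (CPM divided by the kilobases of exon) in null-labelled and 160.8 ± 3.09 RPKM in wild-type-labelled libraries (SD, n = 3 each). Of the exonic bases of Ccnd1, 21.3% also lie in exons of another gene, where reads were left uncounted, so its share is an underestimate.

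The kinase partners moved in opposite directions. Cdk4 had 269.0, 275.9 and 268.6 CPM in null-labelled libraries, against 453.7, 448.9 and 459.1 CPM in wild-type-labelled ones, without overlap. Its log2 fold change of -0.74 ± 0.024 (SE, edgeR adjusted p = 1.77e-202) was the lowest of the 9 cyclin and kinase genes. Cdk6, the close relative of Cdk4, rose to 244.4 ± 10.5 CPM against 187.2 ± 6.18 CPM (SD, n = 3 each; log2 fold change 0.38 ± 0.027 SE). The level of Cdk4 per kilobase was 4.78 ± 0.13 times that of Cdk6 in null-labelled and 10.4 ± 0.32 times in wild-type-labelled libraries (SD, n = 3 each).

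Of the E-type cyclins, activators of CDK2, the gene Ccne1 rose and Ccne2 did not pass the test. Ccne1 had 155.4, 153.5 and 160.1 CPM in null-labelled libraries, against 91.07, 90.54 and 94.86 CPM in wild-type-labelled ones (log2 fold change 0.76 ± 0.032 SE, edgeR adjusted p = 5.65e-121). Ccne2 averaged 69.0 ± 3.52 against 69.5 ± 1.58 CPM (SD, n = 3 each), and the sign of its log2 fold change of -0.007 ± 0.040 (SE) turned with scaling by total counts alone (0.05). Cdk2 stood at 78.0 ± 0.686 CPM in null-labelled and 75.7 ± 3.5 CPM in wild-type-labelled libraries (SD, n = 3 each; edgeR adjusted p = 0.341), and passed only with total counts (log2 fold change 0.10, edgeR adjusted p = 0.0159). Cdc25a, the phosphatase that activates CDK2, rose slightly (log2 fold change 0.21 ± 0.039 SE).

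Of the 5 E2F genes, 3 (60%) rose, 1 (20%) fell and 1 did not pass the test, where 38.1% of all tested genes rose and 41.1% fell. The make-up of the family differed between the labels. E2f2, an activator of S phase genes, had 95.39, 95.67 and 98.56 CPM in null-labelled libraries, against 20.13, 18.11 and 19.79 CPM in wild-type-labelled ones. Its log2 fold change of 2.31 ± 0.048 (SE, edgeR adjusted p below 1e-300) was the highest of the 46 genes. E2f1, an activator of the same class, was lower, with 68.55, 71.78 and 69.78 CPM in null-labelled libraries, against 85.95, 91.79 and 93.61 CPM (log2 fold change -0.37 ± 0.039 SE, edgeR adjusted p = 5.08e-21). E2f3 averaged 81.7 ± 1.96 against 79.6 ± 1.79 CPM (SD, n = 3 each) and did not pass (edgeR adjusted p = 0.378), except with total counts (log2 fold change 0.09, edgeR adjusted p = 0.0179).

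Per kilobase, E2f2 made up 33.5 ± 0.485% of the 3 activators in null-labelled and 8.05 ± 0.492% in wild-type-labelled libraries (SD, n = 3 each), and E2f1 37.6 ± 0.822% and 58.2 ± 1.67%. The ratio of E2f2 to E2f1 was 0.891 ± 0.027 in null-labelled and 0.138 ± 0.012 in wild-type-labelled libraries (SD, n = 3 each). The summed level of the 3 activators differed far less, at 59.0 ± 0.257 and 49.3 ± 0.848 RPKM (SD, n = 3 each).

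E2F7 and E2F8 are atypical family members that repress E2F targets, and both of their transcripts were higher. E2f8 had 244.1, 237.4 and 261.2 CPM in null-labelled libraries, against 80.49, 73.35 and 82.19 CPM in wild-type-labelled ones (log2 fold change 1.65 ± 0.031 SE, edgeR adjusted p below 1e-300). E2f7 averaged 62.0 ± 2.00 against 46.3 ± 1.34 CPM (SD, n = 3 each; log2 fold change 0.42 ± 0.044 SE). Per kilobase, E2f8 alone made up 40.8 ± 1.06% of the 5 E2F members in null-labelled libraries and 21.0 ± 1.01% in wild-type-labelled ones (SD, n = 3 each). In the wild-type-labelled libraries the largest share, 41.7 ± 1.56% (SD, n = 3), belonged to E2f1. The plot of fold changes by role shows E2f2, Ccnd2 and E2f8 apart from the other members.

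**Figure D2:**
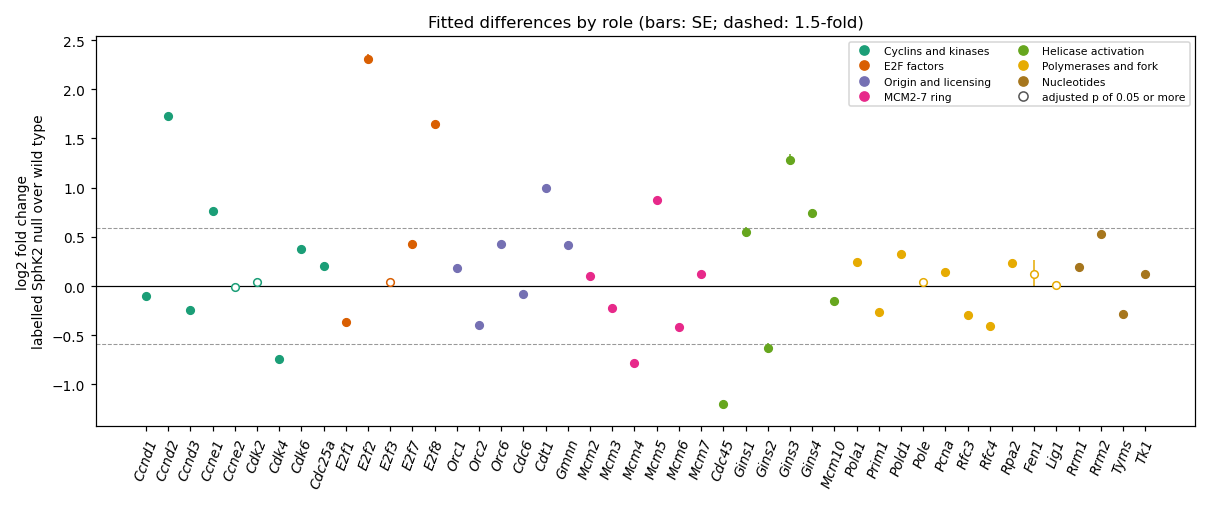
Log2 fold change of each member, null-labelled over wild-type-labelled libraries, with bars of 1 SE and colours for the role. Open circles did not pass an adjusted p of 0.05 and dashed lines mark 1.5-fold. Of the genes beyond these lines, E2f2, Ccnd2 and E2f8 lie farthest out at the top and Cdc45 at the bottom.

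Among the licensing genes, 4 of 6 (66.7%) were higher and 2 (33.3%) lower, against 38.1% and 41.1% of all tested genes. Of the higher ones, Cdt1 and Orc6 are genes of chromosome 8, where 74.6% of the other tested genes were higher. Cdt1, which brings the MCM ring to origins, had 275.3, 279.8 and 283.9 CPM in null-labelled libraries, against 140.5, 141.4 and 137.6 CPM in wild-type-labelled ones (log2 fold change 1.00 ± 0.028 SE, edgeR adjusted p = 1.72e-283). Gmnn encodes geminin, the protein that binds and inhibits CDT1, and rose less, to 76.6 ± 1.88 CPM against 57.4 ± 2.32 CPM (SD, n = 3 each; log2 fold change 0.42 ± 0.041 SE). Per kilobase the ratio of Cdt1 to Gmnn was 2.41, 2.50 and 2.42 in null-labelled libraries, against 1.72, 1.61 and 1.57 in wild-type-labelled ones, so it was higher in every null-labelled library.

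The subunits of the origin recognition complex did not move together. Orc6 rose (log2 fold change 0.42 ± 0.032 SE) and Orc1, which binds the licensing factor CDC6, rose slightly (0.18 ± 0.048 SE) with libraries that overlapped. Orc2 fell (-0.39 ± 0.029 SE), although 29.8% of its exonic bases lie in exons of another gene and were not counted. Cdc6 averaged 69.7 ± 1.04 CPM in null-labelled and 73.8 ± 1.6 CPM in wild-type-labelled libraries (SD, n = 3 each; log2 fold change -0.08 ± 0.040 SE, edgeR adjusted p = 0.0482). This narrow call was lost in DESeq2 (adjusted p = 0.094), with total counts (edgeR adjusted p = 0.572) and without any 1 of the libraries except wild-type-labelled replicate 3.

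The 6 subunits of the MCM ring work in equal numbers in the assembled helicase. They split into 3 (50%) higher and 3 (50%) lower, against 38.1% and 41.1% of all tested genes, while their sum stayed level. The summed level was 528.5 ± 7.96 RPKM in null-labelled and 530.1 ± 4.44 RPKM in wild-type-labelled libraries (SD, n = 3 each), a difference smaller than the spread. Mcm5 had 558.2, 587.6 and 584.0 CPM in null-labelled libraries, against 310.6, 310.5 and 322.3 CPM in wild-type-labelled ones (log2 fold change 0.87 ± 0.024 SE, edgeR adjusted p = 3.63e-294). Mcm4 had 217.5, 210.7 and 211.8 CPM in null-labelled libraries, against 366.1, 367.1 and 365.3 CPM (log2 fold change -0.78 ± 0.025 SE, edgeR adjusted p = 9.62e-206). Both differences were many times the spread between replicates, in opposite directions.

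The other ring subunits moved less. Mcm6 had 378.5, 377.1 and 393.2 CPM in null-labelled libraries, against 507.4, 519.3 and 510.1 CPM (log2 fold change -0.42 ± 0.023 SE), and Mcm3 fell by 0.23 ± 0.024 (SE) on the log2 scale. Mcm2 (0.11 ± 0.024 SE) and Mcm7 (0.12 ± 0.026 SE) rose slightly, and for Mcm7 12.6% of the exonic bases lie in exons of other genes. Per kilobase, Mcm5 held 31.9 ± 0.484% of the ring's transcripts in null-labelled and 17.3 ± 0.375% in wild-type-labelled libraries (SD, n = 3 each), while Mcm4 held 11.2 ± 0.356% and 19.2 ± 0.150%. The ratio of Mcm5 to Mcm4 was 2.69, 2.93 and 2.89 in null-labelled libraries, against 0.890, 0.887 and 0.925, so that the order of these subunits turned round. The most abundant subunit stood 2.90 ± 0.030 times above the least abundant in null-labelled and 2.18 ± 0.0099 times in wild-type-labelled libraries (SD, n = 3 each).

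**Figure D3:**
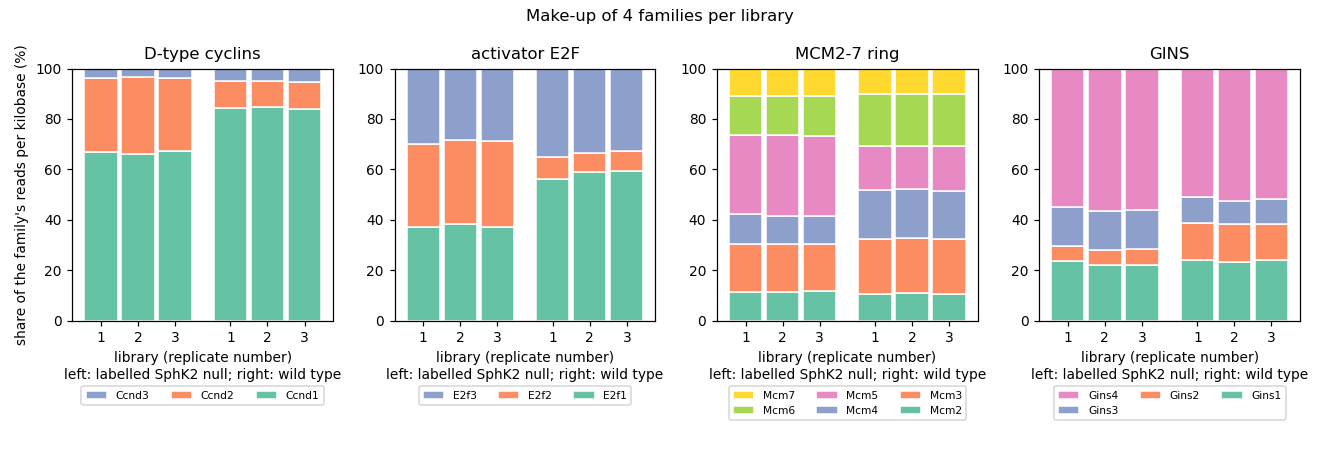
Share of each gene in the reads per kilobase of its family, in percent, for each library (bars 1 to 3 at the left of each panel are null-labelled, those at the right wild-type-labelled). Ccnd2, E2f2 and Mcm5 hold larger shares, and Mcm4 and Gins2 smaller ones, in all 3 null-labelled libraries.

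Of the 6 factors that activate the ring, 3 (50%) were higher and 3 (50%) lower, against 38.1% and 41.1% of all tested genes. The median size of their log2 fold change was 0.69, against 0.32 for the ring subunits. Cdc45, a subunit of the active helicase, had 47.03, 44.74 and 45.31 CPM in null-labelled libraries, against 106.6, 103.4 and 104.9 CPM in wild-type-labelled ones. Its log2 fold change of -1.20 ± 0.041 (SE, edgeR adjusted p = 1.55e-189) was the lowest of the 46 genes. Its partners in the GINS complex went mostly the other way. Gins3 had 46.42, 46.90 and 47.12 CPM in null-labelled libraries, against 19.10, 18.57 and 19.84 CPM (log2 fold change 1.29 ± 0.056 SE, edgeR adjusted p = 8.81e-115). Gins4 had 93.04, 99.29 and 94.88 CPM, against 54.72, 59.97 and 57.80 CPM (0.74 ± 0.040 SE, edgeR adjusted p = 2.89e-77), and Gins1 rose as well (0.55 ± 0.052 SE).

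Gins2 was the exception in that complex, with 29.30, 33.00 and 32.14 CPM in null-labelled libraries, against 47.75, 50.58 and 48.27 CPM in wild-type-labelled ones (log2 fold change -0.63 ± 0.050 SE, edgeR adjusted p = 3.88e-36). Exons of the gene Gse1 cover 67.3% of the exonic bases of Gins2, where reads were left uncounted, so its value rests on the remaining bases and its level per kilobase is an underestimate. With the uncounted bases taken out of the length, its share of the GINS transcripts became 16.6 ± 0.739% in null-labelled and 34.4 ± 0.510% in wild-type-labelled libraries, in place of 6.12 ± 0.305% and 14.7 ± 0.282% (SD, n = 3 each). Mcm10, which helps to start the helicase, fell slightly (-0.15 ± 0.034 SE).

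The polymerases and fork proteins differed little, and none of the 10 passed the test against 1.5-fold, which 34.5% of all tested genes passed. Of the 10, 4 (40%) were higher, 3 (30%) lower and 3 not called, against 38.1% higher and 41.1% lower of all tested genes. Pola1, the catalytic subunit of the polymerase that starts each new strand, rose to 165.7 ± 2.72 CPM against 139.9 ± 3.10 CPM (SD, n = 3 each; log2 fold change 0.25 ± 0.030 SE), while Prim1, the primase subunit of the same complex, fell to 93.2 ± 0.541 CPM against 111.9 ± 4.10 CPM (-0.27 ± 0.034 SE). Pold1, of the lagging-strand polymerase delta, rose (0.33 ± 0.032 SE), as did the sliding clamp Pcna (0.15 ± 0.031 SE), 18.9% of whose 51-base stretches also occur in another gene, and Rpa2 (0.23 ± 0.036 SE), which coats single strands. The clamp loader subunits Rfc3 (-0.29 ± 0.041 SE) and Rfc4 (-0.41 ± 0.040 SE) both fell.

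Pole, of the leading-strand polymerase, stood at 186.2 ± 4.07 CPM in null-labelled and 181.2 ± 2.14 CPM in wild-type-labelled libraries (SD, n = 3 each; edgeR adjusted p = 0.202), and the DNA ligase Lig1 at 256.5 ± 5.56 and 254.5 ± 4.43 CPM (edgeR adjusted p = 0.72). With total counts alone both passed as slightly higher, Pole by a log2 fold change of 0.10 (edgeR adjusted p = 0.000864) and Lig1 by 0.07 (edgeR adjusted p = 0.00965). Fen1, the nuclease that trims lagging-strand flaps, had only 81 to 103 counts in null-labelled and 63 to 96 counts in wild-type-labelled libraries. Since 84.2% of its exonic bases lie in exons of other genes, its level covers only the remaining bases. Its log2 fold change of 0.13 ± 0.138 (SE) did not pass (edgeR adjusted p = 0.395), and a small difference cannot be told from none.

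In nucleotide supply, 3 genes (75%) rose and 1 (25%) fell, where 38.1% of all tested genes were higher and 41.1% lower. Rrm2, the S phase subunit of ribonucleotide reductase, had 566.2, 585.9 and 581.0 CPM in null-labelled libraries, against 399.3, 388.3 and 415.7 CPM in wild-type-labelled ones (log2 fold change 0.53 ± 0.023 SE, edgeR adjusted p = 1.61e-112). Rrm1, the large subunit, rose less (0.19 ± 0.022 SE), and per kilobase its ratio to Rrm2 was 0.835 ± 0.015 in null-labelled and 1.06 ± 0.039 in wild-type-labelled libraries (SD, n = 3 each). Thymidylate synthase Tyms, which makes thymidylate anew, fell (-0.29 ± 0.040 SE), whereas thymidine kinase Tk1, which salvages thymidine, rose slightly (0.13 ± 0.031 SE).

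Per kilobase, the null-labelled libraries had their highest levels in Rrm2 (208.5 ± 3.72 RPKM), Rrm1 (174.1 ± 0.211), Mcm5 (168.5 ± 4.69), Cdt1 (127.8 ± 1.96) and Ccnd1 (126.4 ± 1.91), each as a mean level with SD over 3 libraries. In the wild-type-labelled libraries Rrm1 (152.8 ± 1.39 RPKM), Rrm2 (144.8 ± 4.96), Cdk4 (139.7 ± 1.58), Ccnd1 (135.6 ± 3.02) and Mcm3 (116.4 ± 0.887) came first. This order depends on the length used. With only the exonic bases outside other genes as length, Ccnd1 (172.4 ± 3.84 RPKM) and Cdk4 (171.6 ± 1.94) stood above Rrm1 (152.8 ± 1.39) and Rrm2 (144.8 ± 4.96) in the wild-type-labelled libraries. In the null-labelled libraries Rrm2, Rrm1 and Mcm5 still came first, followed by Ccnd1 (160.7 ± 2.43 RPKM), Cdt1 (127.8 ± 1.96) and Cdk4 (102.5 ± 1.56). Levels over all exonic bases are low estimates for genes whose exons are shared with a neighbour, which was 18.6% of the exonic bases for Cdk4, 17.4% for Ccne2, 12.6% for Rfc4, 10.8% for Orc1 and 9.28% for Cdc45.

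Members on some chromosomes shared the direction of the other genes there, a relation looked at after the values were seen. Chromosome 8 had the highest median log2 fold change of the 20 chromosomes (0.63 over its 775 other tested genes) and chromosome 16 the lowest (-0.46 over 440). Of the 6 members on chromosome 8, Gins3, Cdt1, Mcm5, Gins4 and Orc6 were higher and Gins2 was lower. Of the other tested genes of chromosome 8, 74.6% were higher and 16.4% lower. All 3 members on chromosome 16, Cdc45, Mcm4 and Rfc4, were lower, where 70% of the other tested genes were lower. So were all 3 on chromosome 1, Orc2, Mcm3 and Mcm6, where 58.8% of the other genes were lower and their median was -0.31. Chromosome 4 went against this, with 3 of 4 members higher and 0 lower, where 50.8% of the other genes were lower (median -0.16). On chromosome 6 (median 0.30) both members were higher, and on chromosome 7 (median 0.18) 4 of 6 were higher and 1 lower. Without the members on chromosome 8, 19 of 40 (47.5%) were higher and 15 (37.5%) lower. Without those on chromosomes 8, 16 and 1, 19 of 34 (55.9%) were higher and 9 (26.5%) lower. The 34 still hold the members of chromosomes 4, 6 and 7, so they are not free of differences between chromosomes. Over all tested genes 38.1% were higher and 41.1% lower.

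Subtracting the median of its chromosome from each member changed some calls more than others. Orc6 (-0.21) and Mcm2 (-0.20) turned below 0, and Mcm3 (0.08) and Rfc4 (0.05) above it. Of the members that had not passed the test, Lig1 (-0.17) turned below 0 and Ccne2 (0.15) above it. E2f2 (2.47), E2f8 (1.47), Ccnd2 (1.43), Cdc45 (-0.74), Cdk4 (-0.73), Gins3 (0.65) and Ccne1 (0.58) lay farthest from their chromosome median, together with Gins2 (-1.27). The other members called by glmTreat shrank: Cdt1 from 1.00 to 0.37, Mcm5 from 0.87 to 0.24, Gins4 from 0.74 to 0.11 and Mcm4 from -0.78 to -0.32. Of all members called by glmTreat, only E2f2 moved farther from 0. Gmnn went from 0.42 to 0.40, so that it then lay close to Cdt1. Across the 46 members the log2 fold change correlated with the chromosome median at Pearson's r = 0.463 and Spearman's rho = 0.508, given as a description because members on 1 chromosome share that median and all share the same libraries. The sign was shared in 33 of 46, without a value over all genes to set beside it.

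A narrower window gave a similar correlation. Over the other tested genes within 5 Mb on either side, the median log2 fold change was 0.65 around Mcm5, 0.60 around Gins3, 0.54 around E2f8, 0.52 around Ccne1, -0.37 around Mcm4 and -0.33 around Cdc45. It was near 0 around Mcm3 (-0.04), Mcm6 (-0.08) and Cdk4 (0.04), and 0.62 around Ccnd2. Across the 46 members the correlation was r = 0.494 and rho = 0.456, again a description since neighbouring windows share genes and all share the libraries. The sign was shared in 27 members, also without a value over all genes. Copy number was not measured, and the part of the chromosomes in these differences was not tested.

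**Figure D4:**
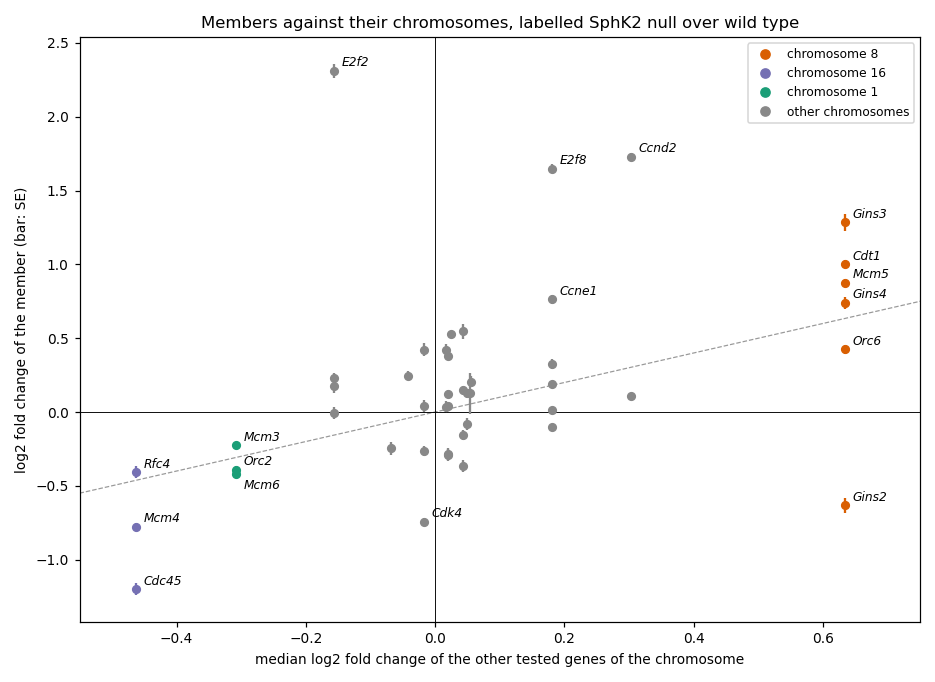
Log2 fold change of each member (vertical axis, bars of 1 SE) against the median log2 fold change of the other tested genes on its chromosome (horizontal axis), null-labelled over wild-type-labelled libraries. Members on chromosome 8 lie at the right, those on chromosomes 16 and 1 at the left, and the dashed line marks equality, with E2f2, E2f8, Ccnd2 and Gins2 farthest from it.

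Related gene lists were read in the same fit, in which 38.1% of all tested genes were higher and 41.1% lower. Of 43 other replication factors, 22 (51.2%) were higher and 18 (41.9%) lower, with a median log2 fold change of 0.08. Rnaseh2a, the catalytic subunit of the enzyme that removes ribonucleotides from DNA, rose (1.42 ± 0.037 SE), and Asf1b, a histone chaperone at the fork, rose too (0.95 ± 0.035 SE), both being genes of chromosome 8. Rnaseh2c, another subunit of the same nuclease, fell (-0.93 ± 0.049 SE). Of 22 other genes of nucleotide synthesis, 9 (40.9%) were higher and 11 (50%) lower (median -0.04). Tk2 (0.84 ± 0.073 SE), Atic (-0.64 ± 0.024 SE) and Dtymk (-0.49 ± 0.033 SE) were the farthest from 0. Tk2 is a gene of chromosome 8, and Atic and Dtymk are genes of chromosome 1.

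RB, its relatives and the DREAM complex hold cell cycle genes down in quiescence. A list of 20 of their genes and of other regulators of the G1/S step had 13 (65%) higher and 4 (20%) lower (median 0.23). It also holds Mybl2, an activator of mitotic genes, and the ubiquitin ligase genes and regulators Skp2, Fbxo5, Fbxw7, Cul4a, Dtl and Fzr1. Rbl2 (0.90 ± 0.042 SE) and Rbl1 (0.59 ± 0.034 SE), relatives of RB, rose with Lin37 (0.67 ± 0.090 SE). Rbl2 is a gene of chromosome 8 and lay 0.26 above the median of that chromosome. E2f4, Tfdp1 and Cul4a, also higher and on chromosome 8, lay below that median (-0.14, -0.39 and -0.33 after subtraction). By glmTreat, 5% of the list passed 1.5-fold, against 34.5% of all tested genes. Rb1 itself stood at 24 ± 1.52 CPM in null-labelled and 23.5 ± 1.38 CPM in wild-type-labelled libraries (SD, n = 3 each; edgeR adjusted p = 0.609). The 34 G2/M genes, of mitosis and its preparation, went more in 1 direction than the replication genes. Of the 34, 30 (88.2%) were higher and 4 (11.8%) lower, with a median of 0.37, against 38.1% and 41.1% of all tested genes. By glmTreat, 17.6% of the G2/M genes passed 1.5-fold, against 34.5% of all tested genes. Mad2l1 (0.94 ± 0.029 SE), Cenpa (0.74 ± 0.027 SE) and Incenp (0.72 ± 0.026 SE) rose most, while Mki67, a widely used marker of cycling cells, fell (-0.61 ± 0.023 SE). Of the 27 with a promoter window, 3.7% held an E2F word and 88.9% CCAAT. The difference between the lists was not tested.

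**Figure D5:**
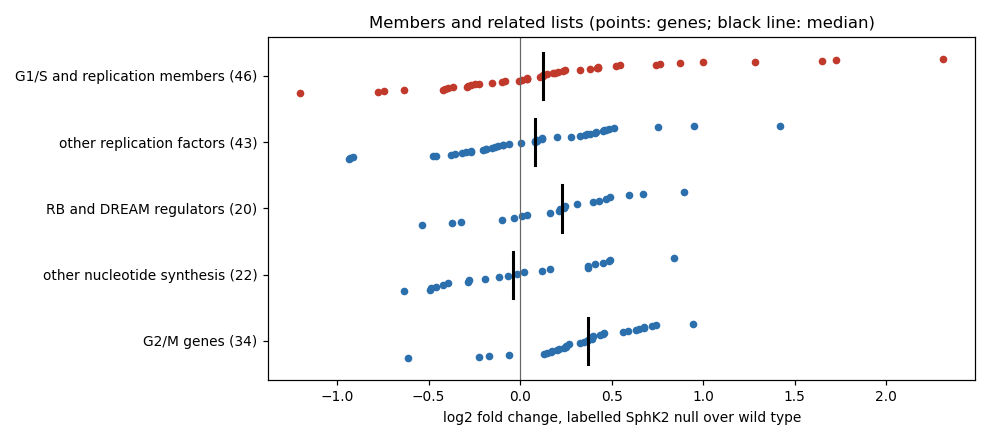
Log2 fold change, null-labelled over wild-type-labelled libraries, of each gene in the 46 members and 4 related lists (points), with the median of each list as a black line. The G2/M genes have the highest median, 0.37, and the members the widest range, from -1.20 to 2.31.

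Of 7 inhibitors of the cyclin-dependent kinases, 3 (42.9%) were higher and 4 (57.1%) lower, against 38.1% and 41.1% of all tested genes. Cdkn2a, whose products block CDK4 and CDK6 and stabilise p53, stood at 0.453 ± 0.088 CPM in null-labelled and 281.8 ± 4.15 CPM in wild-type-labelled libraries, and Cdkn2b at 0.088 ± 0.057 and 43.7 ± 1.87 CPM (SD, n = 3 each). Cdkn1c fell as well, to 1.28 ± 0.287 CPM against 34.8 ± 2.25 CPM (SD, n = 3 each). Cdkn1a, which encodes the p53-induced inhibitor p21, rose to 120.3 ± 1.87 CPM against 11.6 ± 2.89 CPM (SD, n = 3 each; log2 fold change 3.42 ± 0.056 SE), and Cdkn1b, which encodes p27, to 138.7 ± 3.96 CPM against 68.0 ± 2.24 CPM (1.03 ± 0.035 SE). The other genes of the INK4 family of CDK4 and CDK6 inhibitors differed by about the size seen for Cdk4, with Cdkn2c lower (-0.79 ± 0.040 SE) and Cdkn2d higher (0.75 ± 0.056 SE).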

How the data were processed

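RNA was sequenced as single reads of 51 bp, per the labels' protocols. The authors deposited 1 file of raw counts per library, made with featureCounts 1.6.2 by exon and gene identifier from Ensembl release 83 on GRCm38 (mm10 names), per the file headers. No option for strand, multimapping reads or reads in several genes was set there, so by default reads over exons of more than 1 gene are not counted and sense and antisense reads are not told apart. The submitters' processing notes name featureCounts with another version, 1.2.6, beside Subread 1.6.2, FastQC 0.11.2 and Trimmomatic 0.33.

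From these counts, genes that passed filterByExpr were compared between the 2 labels by the robust quasi-likelihood test of edgeR 4.0.16 in R 4.3.3, with TMM scaling, no covariate, Benjamini and Hochberg adjustment over 15199 genes and a threshold of 0.05. The SE is the size of the log2 fold change over the square root of F. Adjusted p-values below 1e-300 are given as such. Levels are CPM, or RPKM over the exonic bases in the files. The test was also run on simulated counts in which few genes differed. That run cannot show how scaling and calls behave here, where 79.2% of genes were called, and it does not cover variation between cultures. DESeq2 1.42.0, other scalings, no filter, a replicate block, glmTreat and leaving out each library were run as alternatives. Each library was counted as 1 replicate. Libraries of a label differed beyond sampling noise (chi-square per degree of freedom 1.47 to 2.14), which does not show that they stem from separate cultures. The coefficient of variation beyond sampling noise that edgeR fitted over all genes was 2.24%. Counts were lowest for Fen1 among the members. Symbols came from a table of gene identifiers, which matched 46488 of 46983 genes.

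The members and the other lists were chosen with earlier results of these data known. Named were any members and, of each other list, the 3 with the largest differences past the threshold at an average log2 CPM of at least 1, with Sphk2, Rb1 and Mki67. The genes named from the marker lists, the other CDK inhibitors and the regulators named for their role or chromosome were picked after their values were seen.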

Additional observations from a re-analysis of the deposited data

How the results depend on the processing

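The median of the members stayed between 0.10 and 0.18 on the log2 scale under every setting of the test, and the members called higher between 24 and 28 and lower between 14 and 16, except for glmTreat. The other replication factors went to 17 higher and 20 lower with no filter and to 18 and 19 without wild-type-labelled replicate 2. Total counts alone moved the median of all genes by 0.06. Against a fold of 1.5, glmTreat called 2321 genes higher and 2924 lower, 8 members higher and 3 lower, 3 and 3 of the other replication factors, 1 and 0 of the RB, DREAM and other G1/S regulators, 1 and 1 of the nucleotide genes and 6 and 0 of the G2/M genes; it asks for larger differences by construction. Ccne2 turned to 0.0509 with total counts and ran from -0.0431 to 0.0333 with 1 library left out, above 0 without null-labelled replicate 3 or wild-type-labelled replicate 2. Lig1 turned to -0.0140 with no filter and ran from -0.0085 to 0.0225 with 1 library left out, below 0 without null-labelled or wild-type-labelled replicate 2. Neither passed the test in any of these, and the cause was not tested. With the chromosome median subtracted, added after the data were seen, Orc6 (-0.21), Mcm2 (-0.20), Mcm3 (0.0826) and Rfc4 (0.0541) changed sign among the members called. With countable bases as length, also added later, the share of Ccnd2 was 26.5% in null-labelled and 9.16% in wild-type-labelled libraries, of Mcm5 31.4% in null-labelled, of Mcm4 19.0% in wild-type-labelled and of Gins3 13.7% and 7.51% in null-labelled and wild-type-labelled libraries. Deviations of same-numbered libraries of the labels correlated at 0.0123, -0.0028 and 0.0181, and those of differently numbered ones at -0.0256 to 0.0128. Replicates differed so little that such values cannot show whether the numbers mark a shared batch, which the labels do not say. With the replicate block 5765 genes were higher and 6238 lower, and the members stayed at 24 and 16.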
